A study of Mus musculus with 18 samples.

Results

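The antioxidant enzymes described here are 9 genes whose products remove superoxide, hydrogen peroxide and lipid peroxides or keep other molecules reduced: the glutathione peroxidases Gpx1, Gpx3 and Gpx4, the superoxide dismutases Sod1 and Sod2, catalase (Cat), thioredoxin reductase 1 (Txnrd1), NAD(P)H quinone dehydrogenase 1 (Nqo1) and heme oxygenase 1 (Hmox1). They were taken as the rows of the deposited count table whose Ensembl identifier carries one of these symbols in the GENCODE M21 annotation, and all 9 were found among 16452 genes. The table comes from RNA sequencing of eWAT, the epididymal white fat pad, taken whole, in 17 libraries, of which 5 are controls, 6 are let-7d and 6 are let-7e. All mice were wild-type C57BL/6 males of a generation named Fm, descended from zygotes microinjected with a negative control, with miR-let-7d or with miR-let-7e, and the treatment label adds IVF to each of these. They ate chow until week 6 and then an LFD up to week 15. The age label reads 24 weeks, and which of these ages applies at sampling was not settled. Control replicate 5 is not analysed here, and the labels do not say whether libraries of a group come from separate litters, so p-values measure the spread between these libraries only. The series title places the experiment in a question on let-7, the mitochondria of the father and the inheritance of a metabolic decline.

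Superoxide, made mainly by the respiratory chain and by NADPH oxidases, is turned into hydrogen peroxide by superoxide dismutases, with SOD1 mostly in the cytosol and SOD2 in the mitochondrial matrix. Hydrogen peroxide is then removed by catalase in peroxisomes, by glutathione peroxidases and by peroxiredoxins, the latter kept active by thioredoxin and its reductase. The transcription factor NRF2 (gene Nfe2l2) drives many of these genes through antioxidant response elements, KEAP1 marks NRF2 for breakdown, and BACH1 represses elements of the same kind, above all that of Hmox1. Fat cells are rich in several of these enzymes, and GPX3 is a secreted form also made by kidney and fat.

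Of the 9 enzymes, 0 passed the test in any comparison between groups (edgeR's quasi-likelihood test, Benjamini-Hochberg adjusted over all 16452 genes, threshold 0.05), and the same test called 0.0% of all genes with let-7d and 0.0% with let-7e against the controls, and 0.0% between the let-7 groups. At an unadjusted p under 0.05 the counts of enzymes were 2, 1 and 1 of 9, beside 10.2%, 10.5% and 6.67% of all genes. The DESeq2 Wald test called 0 of 9 in each comparison, and 10, 15 and 14 of all 16452 genes. The transcripts that stood farthest from the controls were Gpx4 and Sod1, both with lower group means in the let-7 libraries, and their distance rested in large part on control 1. Gpx1 was the enzyme with the widest gap between the let-7e and the let-7d group. Nqo1 and Hmox1, 2 of the enzymes linked to NRF2, had group means within the spread of the libraries. Of the 25 listed NRF2 target enzymes, which include these, 21 lay below 0 in each comparison with the controls. Of all genes, 57.5% (let-7d) and 58.1% (let-7e) lay below 0, and 0 of the 25 were called.

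The injected microRNAs are shown first because they share the seed by which a microRNA pairs with messenger RNAs. The labels do not say which arm was injected, and the mature 5p arms from RefSeq (GRCm38.p6) are printed 5′ to 3′ with the seed, bases 2 to 8, in capitals.
mmu-let-7d-5p: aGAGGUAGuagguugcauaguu
mmu-let-7e-5p: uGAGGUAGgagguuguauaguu
The let-7d arm lies at chr13:48536078-48536099 on the minus strand and the let-7e arm at chr17:17830366-17830387 on the plus strand. Both carry the same seed, whose match in a messenger RNA reads CTACCTC.

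Among the 9 enzymes, this match stood in the annotated 3′ UTR of 1, Sod2. The background over the measured coding genes was 10.9% (1536 of 14150 with at least 1 match), with a median longest 3′ UTR of 1141 bases, so 1 of 9 is near the share of all genes. Sod2 has by far the longest 3′ UTR of the 9, at 4963 bases, while those of the other enzymes run from 72 bases in Sod1 to 1667 bases in Txnrd1. Of the regulators, Bach1 carried 2 matches in 3475 bases, and Nfe2l2 and Keap1 carried 0. The injection was into zygotes, and whether injected let-7 was present in this fat was not measured. The sites are shown because they hold the match to that seed. Each has 22 bases on the plus strand of GRCm38, with the seed match in capitals.
Sod2, chr17:13015748-13015769: aggccctgggctCTACCTCagt
Sod2, chr17:13017157-13017178: ctcagatcctccCTACCTCccc
Bach1, chr16:87731988-87732009: ccaatggatttcCTACCTCact
Bach1, chr16:87732281-87732302: caagtaactacaCTACCTCata
A match is a description of these letters and not a measured site of binding.

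Levels are given as CPM, read counts relative to the TMM-scaled library total. Divided by the length in kilobases of each gene's merged exons in GENCODE M21, the mean levels over 17 libraries descended from Gpx1 at 531 over Cat at 367, Gpx3 at 338, Gpx4 at 249.6 and Sod1 at 107 to Hmox1 at 21.3, Sod2 at 20.3, Txnrd1 at 12.03 and Nqo1 at 3.84. Gpx1 stood above Cat in 17 of 17 libraries, but Cat stood above Gpx3 in 11, Gpx3 above Gpx4 in 13 and Hmox1 above Sod2 in 10, so these 3 neighbouring pairs did not keep an order. Every other step down the list held in 17 of 17 libraries. The order depends on the length used. With the length of the principal transcript alone, Sod1, whose merged exons span 3970 bases against 641 in that transcript, moved to the second place with a mean level of 663, behind Gpx1 at 714. Gpx4 then stood at 449, Gpx3 at 385, Cat at 367, Sod2 at 34.7, Txnrd1 at 24.1, Hmox1 at 23.8 and Nqo1 at 3.84.

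The counts behind these levels set their precision. Nqo1 had 62 to 343 counts per library, Hmox1 had 450 to 1246 and Txnrd1 had at most 3896, while the other 6 enzymes had 2662 to 31738. Library totals ran from 12717365 (let-7d 6) to 28972306 (let-7d 1). Over all libraries the coefficient of variation of CPM was widest in Gpx3 at 45.9% and Gpx4 at 38.5%, followed by Nqo1 at 29.5%, Gpx1 at 25.5%, Sod1 at 23.2%, Sod2 at 19.7%, Cat at 19.2%, Hmox1 at 17.3% and Txnrd1 at 16.3%. The median over the 11237 genes of at least 5 CPM was 17.2%. The 9 enzymes together took from 2849.93 CPM in control 3 to 4617 CPM in let-7e 4.

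The tissue label was checked against marker transcripts. The fat cell markers Adipoq (adiponectin) and Plin1 (perilipin 1) were abundant in every library, with Adipoq from 1650 CPM in let-7d 1 to 4489.78 CPM in let-7e 4. Some libraries stood apart by transcripts of other tissues. Control 3 held 17465 CPM summed over the 4 measured of 10 epididymis and vas deferens markers, against at most 31.5 in any other library, and 14549.8 CPM of 8 smooth muscle markers, against 217 to 732 elsewhere. Control 6 held 1608 CPM of male germ cell markers against at most 73.3 elsewhere. Let-7d 1, control 3 and let-7d 5 held 693, 374 and 303 CPM of epithelial markers. Each comparison was therefore also fitted without control 3, control 6, let-7d 1 and let-7d 5. The libraries also fall into 2 series by their identifiers in the labels, of digits only (let-7d 1 and 2, let-7e 1 and 2) or starting with the letter A (the other 13, with every control), and the fit holds this series as a term. Both comparisons with the controls use the same 5 control libraries. In whole tissue, fewer cells of a type and less RNA per cell cannot be told apart.

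**Figure D1:**
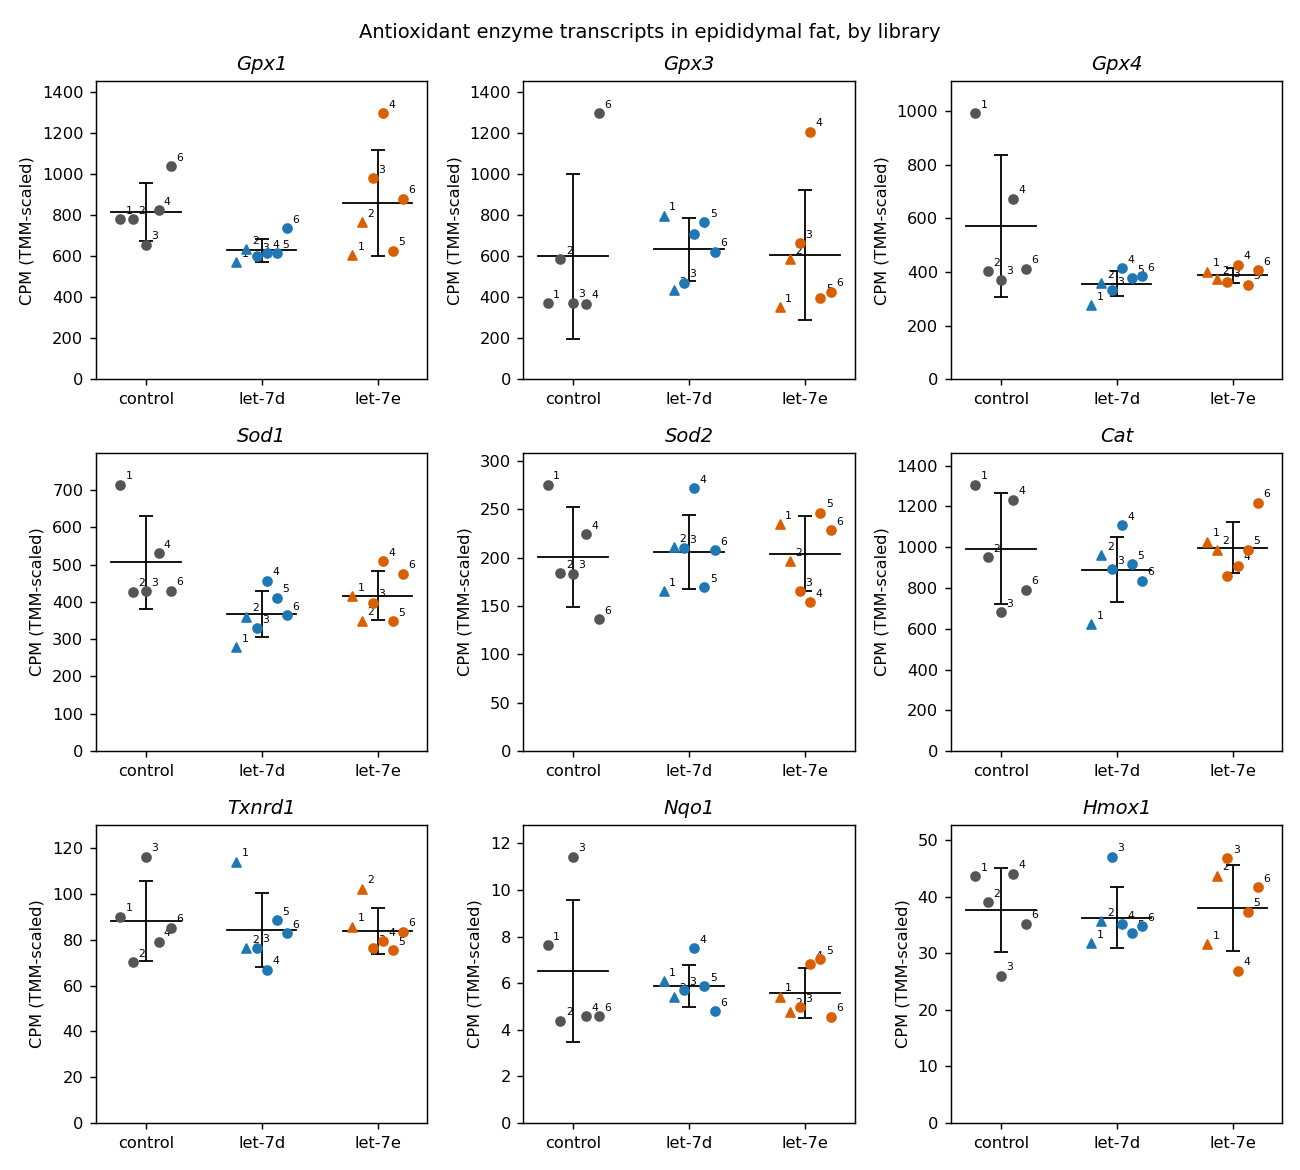
Level of each of the 9 enzymes (CPM, linear axis from 0) in each library, by group. Each point is 1 library with its replicate number, circles are the A-prefixed and triangles the digit-only series, and the line and bar give the group mean and SD. All 3 groups overlap for each enzyme, and the highest points are control 1 for Gpx4 and Sod1 and control 6 and let-7e 4 for Gpx3.

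Gpx4 reduces lipid hydroperoxides within membranes and is the enzyme whose loss permits ferroptosis. Its gene lies at chr10:80047166-80056439 on the plus strand (GRCm38). The control libraries stood at 992 CPM (control 1), 404 (control 2), 372 (control 3), 673 (control 4) and 411 (control 6). Let-7d libraries ran from 277 over a median of 368 to 413 CPM. Let-7e libraries ran from 352 over a median of 387 to 427 CPM. Controls 1 and 4 lay above every let-7 library, and the other 3 controls lay within the range of the let-7 groups. The group means were 571 ± 265 CPM in the controls (SD, n = 5), 357 ± 47.8 with let-7d and 387 ± 28.7 with let-7e (n = 6 each).

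In the fit, the log2 fold change of Gpx4 was -0.64 (SE 0.22, 95% interval -1.11 to -0.17) in let-7d against control, with an adjusted p of 0.456 in edgeR's test. In let-7e against control it was -0.52 (SE 0.23), with an adjusted p of 0.443. All 6 libraries of either let-7 group lay below the control mean of log2 CPM. Without control 1 the log2 fold changes were -0.34 and -0.22. Without control 3, control 6, let-7d 1 and let-7d 5 they were -0.871 and -0.805, with 3 controls left, of which 2 are controls 1 and 4. Neither difference passed the threshold under any of these fits. Controls 1 and 4 also held the highest sums of adipocyte markers among the controls, at 56218 and 56968 CPM, and control 1 the highest sum of red cell markers of all libraries, at 1490.35 CPM against 243 to 841 elsewhere. Let-7e 4 reached 58669.9 CPM of adipocyte markers at 427 CPM of Gpx4. The part of these cells in the difference was not tested.

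Gpx1 is the cytosolic and mitochondrial glutathione peroxidase, encoded at chr9:108338903-108340343 on the plus strand. Its levels in the controls were 782, 779.6, 656, 826 and 1039 CPM, for controls 1, 2, 3, 4 and 6. With let-7d the range was 571 to 738 CPM with a median of 614. Levels with let-7e ran from 605 over a median of 823 to 1299 CPM, the latter in let-7e 4. The let-7d group was thus the narrowest and held the lowest level, and the let-7e group was the widest, spanning from below the lowest control to above the highest. In let-7e against let-7d the log2 fold change was 0.44 (SE 0.16, 95% interval 0.10 to 0.77), with an unadjusted p of 0.0137 and an adjusted p of 0.700 in edgeR's test. Of the 6 let-7e libraries, 5 lay above the let-7d mean of log2 CPM. In let-7d against control the log2 fold change was -0.28 (SE 0.18, adjusted p 0.581), with 6 of 6 libraries below the control mean, and in let-7e against control it was 0.15 (SE 0.17, adjusted p 0.796). Without control 6, the highest control, these values were -0.17 and 0.26, and without let-7e 4 the second was -0.0002. Without let-7e 4, the gap between the let-7 groups was 0.30, and within the A-prefixed libraries it was 0.57. Let-7e 4 was also the library with the highest sum of adipocyte markers, though not with the highest mean of their log2 CPM (11.10, against 11.16 in let-7e 6). Adipocyte sums ran from 26127 to 51644.5 CPM with let-7d and from 41900.4 to 58669.9 CPM with let-7e. Their part in the gap was not tested.

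Gpx3 encodes the glutathione peroxidase that cells secrete into plasma, at chr11:54902453-54910377 on the plus strand. Its control levels were 372, 585, 374, 369 and 1298 CPM, the last in control 6. The let-7d range was 435 to 797 CPM with a median of 666. In let-7e libraries it ran from 351 over a median of 506 to 1207 CPM, the highest again in let-7e 4. A single library thus sat far above its group in the controls and in let-7e, whereas let-7d showed a narrower range. The log2 fold changes were 0.18 (SE 0.39) with let-7d and 0.093 (SE 0.38) with let-7e, the widest errors of the 9 enzymes, at adjusted p of 0.895 and 0.957 in edgeR's test. Without control 6 they were 0.682 and 0.595, and without let-7e 4 the let-7e value was -0.26, so these values rested on single libraries. Control 6 is the library with male germ cell transcripts, which include Prm1 at 145 CPM, and let-7e 4 held Prm1 at 0.52 CPM. In let-7e against let-7d the log2 fold change was -0.085 (SE 0.35, adjusted p 0.992).

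Sod1 turns cytosolic superoxide into hydrogen peroxide with copper and zinc at its active site. Its gene, at chr16:90220754-90226329 on the plus strand, overlaps Scaf4 on the opposite strand over 650 bases of the gene spans, introns included. Where exons of both overlap, reads cannot be separated if counting ignored strand, which is not stated. The controls held 714, 428, 429, 529.6 and 429.5 CPM. Levels with let-7d ran from 279 over a median of 362 to 457 CPM. Let-7e libraries ran from 349 over a median of 406 to 509 CPM. As for Gpx4, control 1 was highest and control 4 next, and the other 3 controls lay within the let-7 ranges. With let-7d the log2 fold change was -0.39 (SE 0.16, 95% interval -0.73 to -0.055), with an unadjusted p of 0.0255 and an adjusted p of 0.471 in edgeR's test, and 6 of 6 libraries lay below the control mean. With let-7e it was -0.21 (SE 0.16, adjusted p 0.667), and between the let-7 groups it was 0.19 (SE 0.14, adjusted p 0.875). Without control 1, the log2 fold changes against control were -0.23 and -0.044. Without the 4 libraries that hold transcripts of other tissues, they were -0.51 and -0.36, again short of the threshold.

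Sod2 is the manganese enzyme of the mitochondrial matrix, encoded at chr17:13006846-13040063 on the plus strand, and the enzyme whose 3′ UTR holds the let-7 matches printed above. The controls stood at 275, 184, 183, 224 and 136 CPM. In let-7d libraries it ran from 165 over a median of 208 to 272 CPM. Levels with let-7e ran from 154 over a median of 212 to 247 CPM. The highest and the lowest level were both in controls, and the let-7 libraries lay between them. The group means were 201 ± 52.0, 206 ± 38.4 and 204 ± 38.5 CPM. The log2 fold changes were 0.046 (SE 0.19, 95% interval -0.36 to 0.45) with let-7d and 0.038 (SE 0.19, 95% interval -0.37 to 0.45) with let-7e. Adjusted p were 0.946 and 0.964 in edgeR's test, and the intervals leave room for differences of these sizes in either direction.

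Catalase splits hydrogen peroxide into water and oxygen in peroxisomes, and its gene lies at chr2:103453849-103485160 on the minus strand. Control levels were 1306, 951, 681, 1232 and 791 CPM. Let-7d libraries ran from 623 over a median of 904 to 1109 CPM. Let-7e libraries ran from 857 over a median of 988 to 1217 CPM. The controls spanned nearly the whole range, with controls 1 and 4 at its top and control 3 near its foot. The lowest library, let-7d 1, was also the one with the lowest adipocyte sum, at 26126.9 CPM, and the second lowest of both was control 3, with 32539 CPM. The log2 fold changes were -0.12 (SE 0.18), 0.046 (SE 0.18) and 0.17 (SE 0.165) with let-7d and with let-7e against the controls and between the let-7 groups, at adjusted p of 0.830, 0.955 and 0.910 in edgeR's test. Without control 3 the first was -0.22, without control 1 the second was 0.17, and without let-7d 1 the third was 0.084.

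Txnrd1 uses NADPH to reduce thioredoxin in the cytosol and is itself a selenoprotein, like the 3 glutathione peroxidases above. Its gene, at chr10:82833951-82897712 on the plus strand, overlaps Eid3 on the same strand over 1305 bases and the noncoding Gm38560 on the opposite strand over 13276 bases. These are overlaps of whole gene spans, introns included, and reads can be shared only where exons overlap, which was not measured. The controls held 90.1, 70.2, 116, 79.1 and 85.3 CPM. With let-7d the range was 67.0 to 114 CPM with a median of 79.7, and let-7e libraries from 75.3 over 81.4 to 102 CPM. One library of each group (control 3, let-7d 1 and let-7e 2) stood above the other libraries of all groups. The log2 fold changes against control were -0.16 (SE 0.13) with let-7d and -0.17 (SE 0.13) with let-7e, at adjusted p of 0.680 and 0.673 in edgeR's test. Between the let-7 groups it was -0.0081 (SE 0.12). Without control 3, the library with vas deferens transcripts, the values against control were -0.0205 and -0.031.

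Nqo1 reduces quinones and is a classic NRF2 target, encoded at chr8:107388225-107403206 on the minus strand. It was the scarcest of the 9, at 7.62, 4.38, 11.4, 4.57 and 4.58 CPM in the controls. The let-7d range was 4.795 to 7.499 CPM with a median of 5.78, and let-7e libraries from 4.56 over 5.19 to 7.02 CPM. Control 3 was the highest library and the other 4 controls spanned the let-7 ranges. The log2 fold changes against control were -0.11 (SE 0.26) and -0.18 (SE 0.26), at adjusted p of 0.907 and 0.842 in edgeR's test. Without control 3 they were 0.22 and 0.14, so this library set their direction.

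Hmox1 breaks down heme to biliverdin, iron and carbon monoxide and is highly expressed in macrophages that take up red cells. Its gene lies at chr8:75093621-75100589 on the plus strand. The controls held 43.7, 39.1, 26.1, 44.1 and 35.2 CPM. Levels with let-7d ran from 31.8 over a median of 34.96 to 47.1 CPM, and let-7e libraries from 27.0 over 39.6 to 46.8 CPM. No group stood apart, and its means differed little, at 37.6 ± 7.41, 36.3 ± 5.45 and 38.0 ± 7.58 CPM. The log2 fold changes were -0.019 (SE 0.17), 0.048 (SE 0.17) and 0.067 (SE 0.15), at adjusted p of 0.976, 0.946 and 0.982 in edgeR's test. The highest library, let-7d 3, also held the highest sum of macrophage markers, at 1791 CPM against 677 to 1562 CPM in the others, and the lowest, control 3, held the 677 CPM. Other libraries did not keep that order. Control 1 held 761 CPM of macrophage markers at 43.7 CPM of Hmox1, and let-7d 2 held 1562 CPM at 35.6 CPM of Hmox1. The part of macrophages in these levels was not tested.

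**Figure D2:**
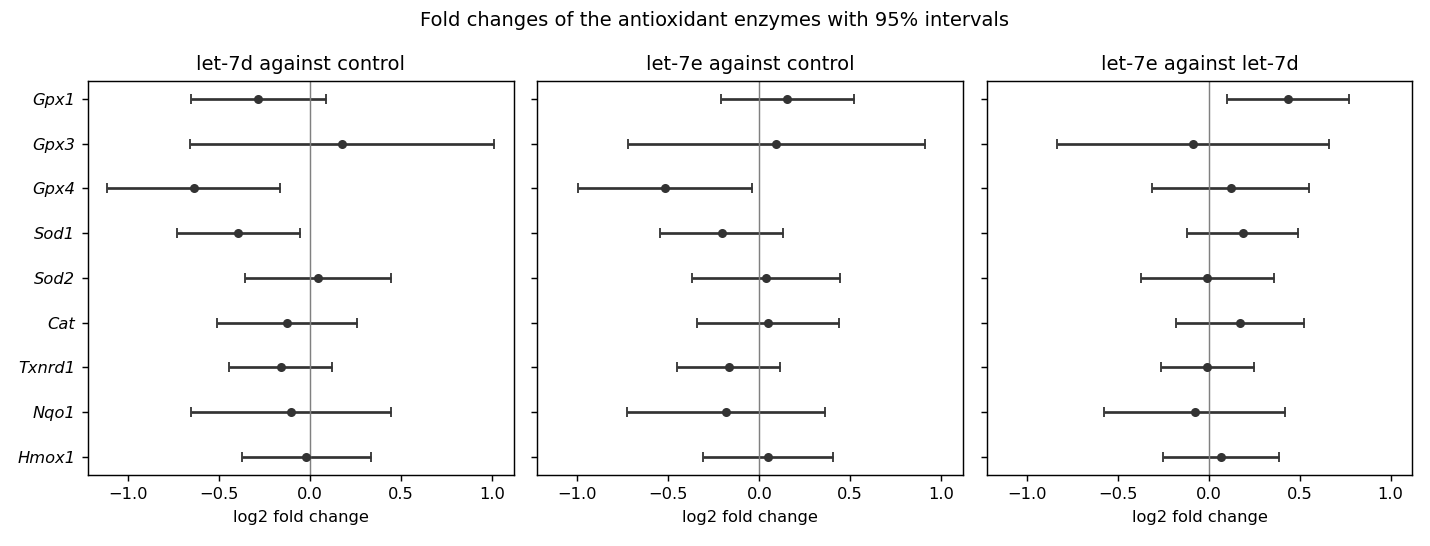
Log2 fold change of each enzyme for each let-7 group against the controls and for let-7e against let-7d (x axis) with its 95% interval from edgeR's fit. The intervals of Gpx4 (both comparisons with control), Sod1 (let-7d) and Gpx1 (let-7e against let-7d) lie to one side of 0 before adjustment, and none of these passed after adjustment over 16452 genes.

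Counted over the enzymes, 7 of 9 had a negative log2 fold change in let-7d against control, where 57.5% of all genes did, 4 of 9 in let-7e against control (58.1% of all genes) and 4 of 9 in let-7e against let-7d (53.1%). The median log2 fold changes of the 9 were -0.12, 0.038 and 0.067, beside medians of all genes of -0.039, -0.039 and -0.013. At an unadjusted p under 0.05, 2 of 9 (Gpx4 and Sod1) lay below the controls with let-7d, beside 10.2% of all genes in either direction and 7.08% lower. With let-7e it was 1 of 9 (Gpx4), beside 10.5% in either direction and 7.99% lower. In let-7e against let-7d it was 1 of 9 (Gpx1), beside 6.67% in either direction and 3.35% higher. The libraries of the compared groups overlapped for 9 of 9 enzymes in each comparison, where 0.517%, 0.632% and 0.237% of all genes did not overlap. By the identifier series, 0 of 9 enzymes were called, beside 12.2% of all genes, and 8 of 9 were lower in the digit-only libraries, beside 49.5% of all genes. The one nearest to the threshold there was Txnrd1, at a log2 difference of 0.27 (SE 0.13, adjusted p 0.204 in edgeR's test) between the digit-only and the A-prefixed libraries.

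The enzymes varied together in some pairs and not in others. Over the 17 libraries, 36 pairs of log2 CPM were compared by permutation, and 5 passed a Benjamini-Hochberg threshold of 0.05 by Pearson's r and 3 by Spearman's rho. The permutations moved libraries freely across groups and series. The share of all gene pairs that would pass is not given, so these counts do not set the enzymes apart from other genes. Gpx4 and Sod1 were the closest pair, with r = 0.90 (adjusted permutation p = 0.00036, from a raw 1e-05, the smallest that 100000 permutations give) and rho = 0.93 (adjusted permutation p = 0.00072). The value was 0.896 within the 13 A-prefixed libraries, 0.904 without controls 1 and 4, the 2 libraries farthest from the median of Gpx4, and 0.86 with the group means removed. These transcripts thus stood in a similar order in all groups, and not only through the 2 high controls.

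Sod2 and catalase followed, with r = 0.71 (adjusted permutation p = 0.0154) and rho = 0.82 (adjusted permutation p = 0.0027), and r was 0.704 within the A-prefixed libraries and 0.75 without control 6 and let-7e 4. Gpx4 and catalase had r = 0.70 (adjusted permutation p = 0.0154) and rho = 0.54 (adjusted permutation p = 0.141), and r was 0.67 within the A-prefixed libraries and 0.58 without controls 1 and 4. Sod1 and catalase also passed by Pearson's r only, with r = 0.66 (adjusted permutation p = 0.0307) and rho = 0.48 (adjusted permutation p = 0.234). Without control 1 and let-7d 1, r of that pair was 0.34. Gpx3 ran against Sod2, with r = -0.74 (adjusted permutation p = 0.0122) and rho = -0.72 (adjusted permutation p = 0.0208), and r was -0.71 within the A-prefixed libraries and -0.54 without control 6 and let-7e 4. Control 6 and let-7e 4, the 2 libraries highest in Gpx3, were also the lowest in Sod2, at 136 and 154 CPM.

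The other 2 of the lowest pairs did not pass. Nqo1 and Hmox1 had r = -0.54 (adjusted permutation p = 0.145) and rho = -0.44 (adjusted permutation p = 0.318), with r of -0.56 within the A-prefixed libraries and -0.49 without controls 1 and 3. Without control 3 alone it was -0.31, and without the 4 libraries that hold transcripts of other tissues it was -0.32. Catalase and Txnrd1 had r = -0.51 (adjusted permutation p = 0.158) and rho = -0.25 (adjusted permutation p = 0.743), and r was -0.398 within the A-prefixed libraries. Without let-7d 1 and control 3, which hold epithelial transcripts, r was 0.054, so that relation rested on those libraries. The levels in a library share its depth, scaling and cell makeup.

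**Figure D3:**
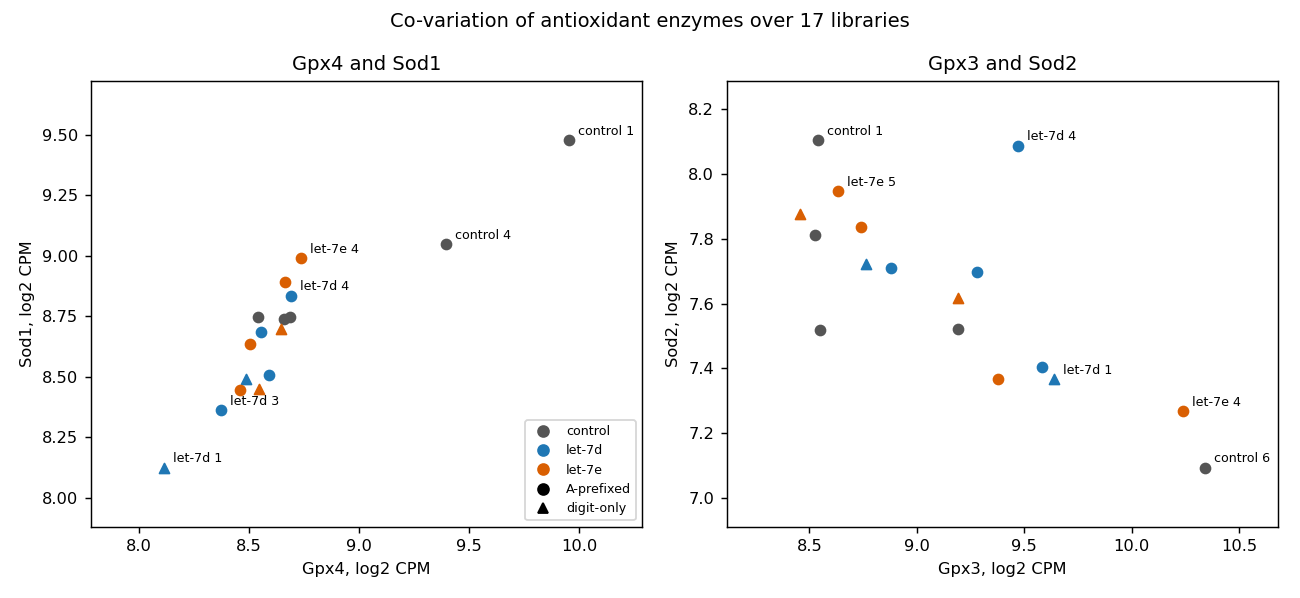
Log2 CPM of Sod1 against Gpx4 (left) and of Sod2 against Gpx3 (right), 1 point per library, coloured by group, with circles for the A-prefixed and triangles for the digit-only series. Libraries high in Gpx4 were also high in Sod1 in all groups, with controls 1 and 4 at the top right, and control 6 and let-7e 4 sit at the high Gpx3, low Sod2 end.

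Across 9405 genes of at least 10 CPM, the transcripts whose log2 CPM ran most like each enzyme over the 17 libraries are given by Pearson's r, as a description without a test. Catalase ran closest to Acadl (r = 0.97), a mitochondrial fatty acid oxidation enzyme, Apmap (0.965) and Lonp2 (0.96), a peroxisomal protease. Sod2 ran closest to Rtn4 (0.96), Ldha (0.93), lactate dehydrogenase A, and Fabp5 (0.93), a fatty acid binding protein. Sod1 had Dhrs7b, Hsd17b10 and Mrpl9, the last a mitochondrial ribosome protein, each at 0.95. Gpx4 had Gde1 (0.93), Pxmp4 (0.92), a peroxisomal membrane protein, and Napa (0.92).

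Gpx1 ran closest to Klf4 (0.903), Ces1d (0.88), a carboxylesterase, and Slc15a4 (0.86). Gpx3 had Efhd1 (0.83), Aprt (0.82) and Ift57 (0.79). Txnrd1 had Snapc4 (0.895), Senp6 (0.88) and Usp22 (0.87). Nqo1 had Ccdc107 (0.85), Atp5g1 (0.82) and Sec11a (0.8002). Hmox1 had the lowest likeness of the 9, with Lipa (0.83), the lysosomal acid lipase, Tbc1d4 (0.74) and E2f1 (0.74).

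The upstream regulators were measured beside the enzymes. Bach1, the repressor of Hmox1, stood at 28.0, 31.7, 22.5, 24.7 and 32.0 CPM in the controls. Let-7d libraries held 15.1 to 32.1 CPM and let-7e libraries 24.8 to 59.0 CPM, with let-7e 2 at the top. One let-7e library thus stood far above all others, and the rest of that group lay within or close to the range of the controls. The log2 fold change in let-7e against let-7d was 0.48 (SE 0.19, unadjusted p = 0.0198, adjusted p = 0.700 in edgeR's test), with 6 of 6 let-7e libraries above the let-7d mean, and 0.31 without let-7e 2. Against the controls it was -0.35 with let-7d (adjusted p 0.564) and 0.13 with let-7e (adjusted p 0.862), and these became -0.22 without let-7d 4 and 0.048 without let-7e 2. Nfe2l2, encoding NRF2 itself, had group means of 75.4 ± 8.92, 72.9 ± 5.99 and 76.1 ± 4.87 CPM in control, let-7d and let-7e. Keap1 had 75.6 ± 4.99, 64.9 ± 12.5 and 65.1 ± 9.72 CPM, and its 4 digit-only libraries, at 46.7 to 55.5 CPM, were the 4 lowest of all. With the series in the fit, the log2 fold changes of Keap1 were -0.084 and -0.067 against control, at adjusted p of 0.680 and 0.771. Sqstm1, which encodes the autophagy receptor p62 that binds KEAP1, stood at 568 ± 74.6 CPM in the controls, 428 ± 61.3 with let-7d and 462 ± 71.2 with let-7e. Its log2 fold changes against control were -0.30 (SE 0.10, adjusted p 0.456) with let-7d and -0.19 (SE 0.10, adjusted p 0.520) with let-7e, the latter -0.12 without control 1.

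Of the 11 measured NRF2 regulators, 10 lay below 0 in let-7d against control and 7 in let-7e against control, and 0 were called. Of all genes, 57.5% and 58.1% lay below 0 in these comparisons. The list of 25 NRF2 target enzymes, which holds Nqo1, Hmox1, Txnrd1 and Cat, had 21 members below 0 in each of these comparisons, with median log2 fold changes of -0.216 and -0.216, and 0 called, beside medians of all genes of -0.039 in each. Its member with the smallest p was Txn1, thioredoxin itself, with let-7d (157 ± 17.3 against 199 ± 27.2 CPM, log2 fold change -0.29, SE 0.11, adjusted p 0.461). With let-7e it was Cbr3, a carbonyl reductase (7.93 ± 0.98 against 14.9 ± 7.33 CPM, log2 fold change -0.91, SE 0.31, adjusted p 0.365). Cbr3 was highest in control 3, at 25.4 CPM, and without that library its value was -0.61. Both comparisons share the 5 controls, and control 1 was the highest of the 5 in Txn1, at 238 CPM.

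The antioxidant response element core TGACNNNGC was looked for on both strands in the RefSeq promoter windows of these enzymes (GRCm38.p6, 250 bases before to 50 after each start). It stood in 2 of 13 windows, which belong to 8 of the enzymes, beside 12.4% of all 32851 windows of that length. Hmox1 is the enzyme without a window, and no sequence outside these windows was searched for any enzyme. The 2 matches are shown because their genes are the 2 enzymes for which a searched window holds the core. Each match lies on the minus strand and is in capitals, and the plus strand is printed.
Sod1, chr16:90220676-90220744: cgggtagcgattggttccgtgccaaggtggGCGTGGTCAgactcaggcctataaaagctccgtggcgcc
Txnrd1, chr10:82859084-82859152: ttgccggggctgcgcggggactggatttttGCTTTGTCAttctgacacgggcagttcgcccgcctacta
The first base of the match lies at -56 from the start for Sod1 and at -92 for Txnrd1. The search overlapped no other motif, since no other was searched, and a match says nothing of binding.

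**Figure D4:**
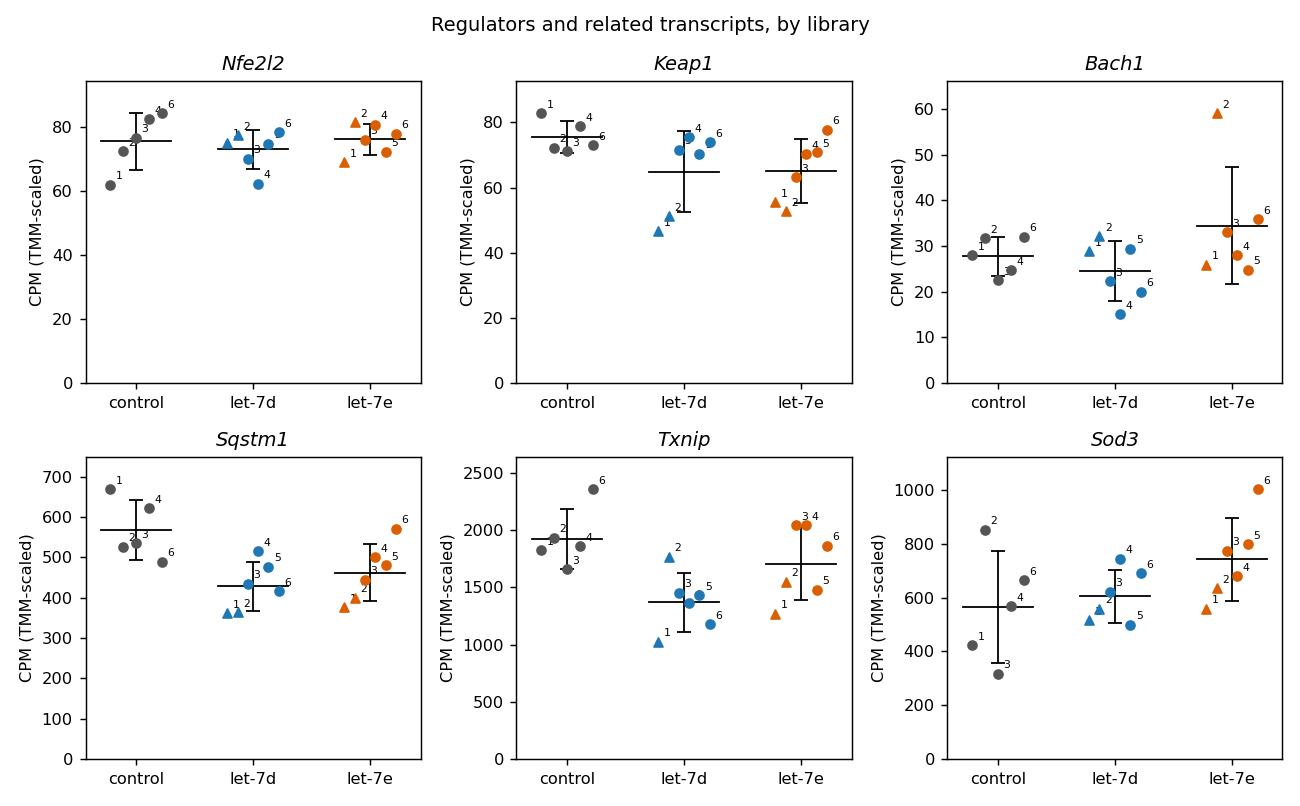
Level (CPM, linear axis from 0) of the regulators Nfe2l2, Keap1, Bach1 and Sqstm1 and of the related genes Txnip and Sod3 in each library, by group. Points, symbols, lines and bars are as in the plot of the enzymes, the 4 triangles in Keap1 are its lowest libraries, and let-7e 2 stands highest in Bach1.

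Around the glutathione peroxidases, 5 of the 8 listed genes were in the table. Besides the 3 described, Gpx7 had log2 fold changes of 0.27 and 0.35 against control, and Gpx8, a peroxidase of the endoplasmic reticulum, had -0.65 (SE 0.26, adjusted p 0.473) with let-7d and -0.68 (SE 0.27, adjusted p 0.412) with let-7e. Gpx8 stood at 69.5 CPM in control 1 and at 16.0 to 38.3 CPM in the other libraries, and without control 1 its values were -0.28 and -0.31. Of the superoxide dismutases, Sod3, the secreted form that guards the matrix around cells, had its means at 565 ± 209 CPM in the controls, 605 ± 98.2 with let-7d and 741 ± 156 with let-7e. The log2 fold change with let-7e was 0.49 (SE 0.21, adjusted p 0.443 in edgeR's test), with 6 of 6 libraries above the control mean of log2 CPM, and with let-7d 0.21 (SE 0.21, adjusted p 0.743). With single controls left out, the let-7d value of Sod3 ran from 0.076 (without control 3) to 0.41 (without control 2), and the let-7e value from 0.36 to 0.69 without the same libraries. Ccs, the copper chaperone of SOD1, had 0.056 and -0.042.

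Of the 17 thioredoxin and peroxiredoxin genes, 12 lay below 0 with let-7d and 14 with let-7e, beside 57.5% and 58.1% of all genes. Their medians were -0.13 and -0.067, and 0 were called. Txnip, which encodes the protein that binds and inhibits thioredoxin, stood at 1657 to 2359.9 CPM in the controls and at 1024 to 1767 CPM with let-7d, or -0.43 (SE 0.16, adjusted p 0.461) on the log2 scale, with 6 of 6 libraries below the control mean. Srxn1, sulfiredoxin, which restores overoxidized peroxiredoxins, had -0.53 (SE 0.19, adjusted p 0.376) with let-7e and was highest in control 1 at 75.4 CPM, without which the value was -0.28. The 18 genes of glutathione synthesis and recycling had 13 below 0 with let-7d and 12 with let-7e, at medians of -0.25 and -0.099 and 0 called. They include Chac1, which degrades glutathione, at -0.73 (SE 0.24, adjusted p 0.456) with let-7d, and Gstm1, a glutathione transferase, at -0.45 (SE 0.15, adjusted p 0.367) with let-7e. Gclc and Gclm, the subunits of the enzyme that limits glutathione synthesis, had -0.32 and -0.30 with let-7d and -0.37 and -0.34 with let-7e.

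The 11 genes of heme breakdown and iron storage, with Hmox1, had 4 below 0 with let-7d and 3 with let-7e, beside 57.5% and 58.1% of all genes. Hp, haptoglobin, which binds free hemoglobin, stood at 0.72 on the log2 scale (SE 0.28, adjusted p 0.406) with let-7e, with 6 of 6 libraries above the control mean. Hpx, hemopexin, had 2.05 (SE 0.94, adjusted p 0.482) with let-7d at means of 3.88 ± 3.12 and 0.993 ± 1.02 CPM. The 10 genes of selenium supply and selenoprotein synthesis, on which the glutathione peroxidases and Txnrd1 depend, had 7 below 0 with let-7d and 5 with let-7e. Eefsec, the elongation factor for selenocysteine, had -0.26 (SE 0.12, adjusted p 0.453) with let-7e, and Lrp8, a receptor for selenoprotein P, had -1.08 (SE 0.62, adjusted p 0.556) with let-7d, where control 6 stood at 7.1 CPM and every other library at 2.2 CPM or less. The 12 other selenoproteins were split 6 and 6 in both comparisons, with Dio2, which activates thyroid hormone, at 0.94 (SE 0.54, adjusted p 0.558) with let-7d and Selenon at 0.20 (SE 0.11, adjusted p 0.520) with let-7e. Without let-7d 6, its highest library at 3.9 CPM, Dio2 stood at 0.61, and without control 2 Selenon stood at 0.32.

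Of the 9 measured genes of NADPH supply, 5 lay below 0 with let-7d and 7 with let-7e, beside 57.5% and 58.1% of all genes. Me1, malic enzyme, had -1.18 (SE 0.57, adjusted p 0.491) with let-7e, where controls 1 and 4 stood at 3933 and 2753 CPM and the other libraries at 286 to 1200.1 CPM, and Mthfd1 had 0.21 (SE 0.11, adjusted p 0.517) with let-7d. Without control 1 the value of Me1 was -0.56. In the 13 genes of the catalase and peroxisome list, 11 lay below 0 with let-7d and 6 with let-7e. Abcd2, a peroxisomal fatty acid transporter, had 0.29 (SE 0.17, adjusted p 0.560) with let-7e and 0.19 without control 3. Superoxide-producing oxidases were the one pathway list with 10 of 10 measured members above 0 in both comparisons with the controls, where 57.5% and 58.1% of all genes lay below 0. Their medians were 0.32 and 0.16, and 0 were called. Their smallest p was that of Duox2, at 1.48 (SE 0.75, adjusted p 0.516) with let-7d and 1.32 (SE 0.75, adjusted p 0.545) with let-7e, at a mean below 1 CPM in each group. The libraries highest in Duox2, let-7d 5 at 2.7 CPM and let-7d 1 at 1.3 CPM, are among those with epithelial transcripts, at 303 and 693 CPM summed over 9 markers. Without let-7d 5 the let-7d value of Duox2 was 0.50, and without all 4 libraries that hold transcripts of other tissues it was 0.31. Macrophages, which carry several of these oxidases, had 11 of 11 marker genes above 0 with let-7d and 9 of 11 with let-7e. Their summed levels were 677 to 1481 CPM in the controls, 935 to 1791 with let-7d and 856 to 1526 with let-7e. The medians of these sums were 1211 CPM in the controls, 1182 with let-7d and 1184 with let-7e. In the fit, the median log2 fold changes of the 11 markers were 0.23 with let-7d and 0.14 with let-7e. None of the 11 markers was called, and the part of macrophages and of epithelium in the oxidase values was not tested.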

How the data were processed

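The deposited table gives whole-number read counts per Ensembl gene, which per the submitters' processing notes come from STAR alignment to GRCm38.p6. The tool that counted reads, its strand setting and the authors' CPM filter are not given in the sources used here, and the second deposited table, named RPKM by the authors, was not used. Per the labels' protocols, 1 ug of total RNA went into each library. Symbols, positions and lengths came from GENCODE M21, which matched 16438 of 16452 identifiers, 497 of them without their version number.

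The quasi-likelihood test of edgeR 4.0.16 (R 4.3.3, limma 3.58.1) was run on the counts of all 17 libraries, with TMM scaling and with group and identifier series as terms. p-values are two-sided and adjusted by Benjamini-Hochberg over 16452 genes, and intervals use edgeR's degrees of freedom. The common biological coefficient of variation was 0.36. A prior count of 2 enters log2 CPM. Means and SDs of groups ignore the series, which the fold changes account for. Alternatives were the DESeq2 1.42.0 Wald test and its size factors, a floor of 5 CPM on average, a replicate block, no series term, fewer groups or one series in the fit, and libraries left out. The fit was tried on simulated counts with 100 genes planted at each of 2-fold and 4-fold. Of these, 61 and 96 were recovered between let-7d and control (6 false calls). The numbers were 65 and 91 between let-7e and control (7 false), and 76 and 94 between the let-7 groups (2 false). The simulation held no difference by series and no library with transcripts of other tissues, and genes of low count were not planted. These numbers therefore need not hold for the real libraries. No library pair within a group was a duplicate, the closest, let-7d 3 and 6, differing by a chi-square of 15.35 for each degree of freedom.

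The enzymes, gene lists, tests and alternatives were chosen with earlier results of these data known. Named beside the 9 enzymes are, per list and comparison with the controls, the gene with the smallest unadjusted p that is no member, the regulators Nfe2l2, Keap1 and Bach1, the 3 most alike transcripts per enzyme and the 3 highest and 3 lowest pairs. Gpx7, Ccs, Gclc, Gclm, Prm1, the let-7e value of Sqstm1 and the pair of Sod1 with Cat were added after their values were seen. One gene that this rule names is not reported here.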

Additional observations from a re-analysis of the deposited data

Results flagged for a closer look

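In 27 sets of libraries (9 enzymes in 3 groups), the library at either end was set against the rest of its group by Dixon's test, and 3 stood apart, where chance gives about 1 in 20 sets. Gpx3 in control 6, at 1298 CPM, lay far above the other 4 controls, which held 369 to 585 CPM. Gpx3 in let-7e 4, at 1207 CPM, lay above the other 5 let-7e libraries, which held 351 to 665 CPM (664.5). Hmox1 in let-7d 3, at 47.1 CPM, lay above the other 5 let-7d libraries, which held 31.8 to 35.6 CPM.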

How the results depend on the processing

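Under 8 alternatives and with each of the 17 libraries left out in turn, the 27 fold changes of the enzymes gave 675 values. Of these, 619 kept their sign, 56 did not, and 0 passed the threshold (smallest adjusted p 0.158). Of the 27, 12 never changed sign. The number of genes called stayed at 0 under every other edgeR setting, and the DESeq2 Wald test called 10, 15 and 14 genes with let-7d, with let-7e and between the let-7 groups, none of them an enzyme. It gave no adjusted p to 617, 1254 and 4237 genes. No cause of a change of sign was tested.

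Replicate numbers paired the libraries only in part: deviations of same-numbered libraries correlated at -0.38 to 0.53. Of the let-7e libraries, replicates 1, 2 and 3 were most like the let-7d library of their number (0.53, 0.23 and 0.14), and replicates 4, 5 and 6 were not. Against the controls, only let-7d 4 (0.21) and let-7e 2 (0.25) were most like the control of their number. With a replicate block beside the series, Gpx4 stood at -0.344 (let-7d) and -0.232 (let-7e), Sod1 at -0.23 and -0.054, and signs turned for let-7d in Cat (0.0514) and Hmox1 (0.0930), for let-7e in Nfe2l2 (-0.0984) and between the let-7 groups in Txnrd1 (0.0086). Among A-prefixed libraries only, signs turned for Hmox1 with let-7d (0.0152) and, between the let-7 groups, for Gpx3 (0.0784), Txnrd1 (0.0045) and Keap1 (-0.0385). With only the compared groups fitted, Hmox1 stood at 0.0143 with let-7d, and with genes of at least 5 CPM, Nfe2l2 stood at -0.0001 with let-7e.

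Without the 4 libraries that hold transcripts of other tissues, signs turned with let-7d in Sod2 (-0.0155), Nqo1 (0.1385), Lrp8 (0.3094) and Nfe2l2 (0.0005). With let-7e they turned in Sod2 (-0.1498), Cat (-0.2088), Txnrd1 (0.0274), Nqo1 (0.0968) and Hmox1 (-0.1126). Between the let-7 groups they turned in Gpx3 (0.1560), Txnrd1 (0.1316) and Keap1 (-0.0169), and r of Cat with Txnrd1 became 0.184.

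With 1 library left out, values that crossed 0 ranged, for let-7d, from -0.0574 to 0.1924 (Sod2), -0.2177 to 0.0013 (Cat), -0.2192 to 0.2163 (Nqo1), -0.1264 to 0.0610 (Hmox1), -1.3132 to 0.0396 (Lrp8) and -0.1151 to 0.0143 (Nfe2l2). For let-7e they ranged from -0.0002 to 0.2630 (Gpx1), -0.2605 to 0.5953 (Gpx3), -0.0650 to 0.1850 (Sod2), -0.0463 to 0.1732 (Cat), -0.2974 to 0.1376 (Nqo1), -0.0420 to 0.1743 (Hmox1) and -0.0543 to 0.0510 (Nfe2l2). Between the let-7 groups they ranged from -0.3812 to 0.0837 (Gpx3), -0.0739 to 0.0789 (Sod2), -0.0733 to 0.0755 (Txnrd1), -0.0084 to 0.1555 (Hmox1) and -0.0132 to 0.0544 (Keap1). Nqo1, at 62 counts in its lowest library, is the enzyme whose precision depth limits most.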

Other observations

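Control 1 held the highest level of the 17 libraries in Gpx4 (992 CPM), Sod1 (714 CPM), Sod2 (275 CPM), Cat (1306 CPM), Me1 (3933 CPM), Gpx8 (69.5 CPM), Srxn1 (75.4 CPM), Sqstm1 (669 CPM), Gstm1 (505 CPM) and Txn1 (238 CPM). Its Nfe2l2, at 61.9 CPM, was the lowest of the 17 and that of let-7d 4, at 62.2 CPM, the next. These genes were picked after their values were seen, from those named in the report.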
